A study of Arabidopsis thaliana with 18 samples.

Results

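Serine/arginine-rich (SR) proteins are nuclear RNA-binding proteins that attach to exon sequences of pre-mRNA and help to recruit the spliceosome to neighbouring splice sites. In plants their own pre-mRNAs are alternatively spliced, and a form that carries an early stop codon gives no full protein and can be held in the nucleus or removed by nonsense-mediated decay. Splicing of RS31 is known to respond to light through a signal from the chloroplast. The genes described here are 10 of the 24951 genes listed in the deposited tables. They were taken by locus number, and together they have 44 of the 43513 listed transcript forms. RS31, RS31A, RS40 and RS41 belong to the plant-specific RS subfamily, with a pair of RNA recognition motifs before the arginine/serine-rich stretch. SR30, SR34, SR34A and SR34B are the relatives of human SRSF1. SR45 and SR45A are SR-like proteins, SR45 being a counterpart of human RNPS1 and SR45A a relative of the Tra2 proteins.

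The samples were whole wild type Arabidopsis thaliana seedlings, which had grown for 7 days in darkness and were then lit for 0, 1, 2, 4, 8 or 12 h. Every group, the dark one at 0 h included, had that same dark start, and each had 3 libraries of polyA RNA. No group stayed in darkness for the added hours, so light, seedling age and time of day cannot be told apart. In bulk RNA, fewer cells of a type and less RNA per cell cannot be told apart either. Levels are given in FPKM (fragments scaled by the length of the transcript and the depth of the library). The share of a form is its expected count as a percentage of the summed expected count of all listed forms of its gene in the same library, so that a change of the whole gene leaves it as it is.

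Depth was even, with summed expected counts from 20072467 to 22760811 per library, and all 10 genes were measured in all 18 libraries. The lowest member count was 153, for RS31A, and the highest was 9111, for SR30. A library stood apart in both the dark and the 2 h group: dark replicate 3 correlated at 0.963 and 0.967 with the other dark libraries and 2 h replicate 3 at 0.965 and 0.968 with the other 2 h libraries (log2 FPKM over genes), against at least 0.982 for every other pair within a group. The greening markers LHCB1.1 and RBCS1A, both detected in all libraries, summed to 6742–8089 FPKM at 12 h and 610.1–700.1 FPKM in the dark, a rise that greening seedlings show. The 3 seed storage markers summed to 1.17–5.12 FPKM at 12 h, with SESA3 at 0 in some library, and to 615–10698 FPKM in the dark, where replicate 3 was the highest. The 3 root markers summed to 1028–3579 FPKM at 2 h, against 536–971 FPKM in the dark and 817–1250 FPKM at 4, 8 and 12 h. The root hair genes LRX1 and RHS19 reached 0.65–3.10 and 1.44–3.06 FPKM at 2 h and stayed at or under 0.14 FPKM at the other times, where each was at 0 in some libraries. The part that tissue content has in the values below was not tested.

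RS31, RS40, SR34, SR34B and RS41 fell at 2 h of light and stayed low to 12 h, RS41 by the least. RS31 had 92.9, 95.5 and 92.3 FPKM in the 3 dark libraries, 87.6, 87.9 and 85.7 FPKM at 1 h, and 37.4, 46.5 and 46.6 FPKM at 2 h. Its level was 39.3, 39.0 and 44.1 FPKM at 4 h, 37.0, 38.0 and 41.0 FPKM at 8 h, and 46.1, 39.9 and 38.1 FPKM at 12 h. All libraries from 2 h on lay below all dark and 1 h libraries. Against dark its log2 fold change came to -1.20 after 2 h (approximate SE 0.10, adjusted p = 3.41e-07) and -1.14 after 12 h (adjusted p = 2.43e-07). These and all other gene-level p-values are from edgeR's quasi-likelihood test with Benjamini-Hochberg adjustment over the 20569 genes tested. A gene passed at an adjusted p under 0.05. The test used expected counts with no correction for transcript length. A shift between forms of unlike length, as described below for SR30, RS41 and SR34A, can therefore enter its log2 fold changes.

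RS40 had 122, 133 and 157 FPKM in the 3 dark libraries, 107, 121 and 96.8 FPKM at 1 h, and 41.6, 41.4 and 68.5 FPKM at 2 h. Its level was 59.4, 56.1 and 58.3 FPKM at 4 h, 45.1, 55.9 and 44.9 FPKM at 8 h, and 53.8, 48.8 and 55.8 FPKM at 12 h. As for RS31, the groups from 2 h on did not overlap the dark and 1 h groups. Its log2 fold change of -1.54 at 2 h against dark (approximate SE 0.17, adjusted p = 4.3e-06) was the largest in size among the 10 genes at the 5 times against dark. Of all genes outside the set, WLIM2b (AT3G55770, a LIM domain protein), AT5G56140 and the SR gene SCL30 had the log2 CPM profiles most like that of RS40 over the 18 libraries, with Pearson correlations of 0.993, 0.992 and 0.989, which describe libraries that share their times.

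SR34, a relative of human SRSF1, had 216, 229 and 229.7 FPKM in the 3 dark libraries, 188, 206 and 187 FPKM at 1 h, and 75.3, 87.1 and 109 FPKM at 2 h. Its level was 87.8, 92.8 and 97.0 FPKM at 4 h, 82.1, 87.7 and 91.0 FPKM at 8 h, and 93.6, 74.7 and 82.5 FPKM at 12 h. The libraries from 2 h on held 75.3 to 108.9 FPKM and lay far below the dark and 1 h libraries. Against dark the log2 fold change reached -1.40 by 2 h and -1.37 by 12 h (approximate SE 0.12, adjusted p = 2.46e-07). SR34B, its paralog, had 23.8, 24.5 and 24.1 FPKM in the 3 dark libraries, 23.2, 23.8 and 22.8 FPKM at 1 h, and 10.5, 14.5 and 12.4 FPKM at 2 h. Its level was 10.5, 9.83 and 12.4 FPKM at 4 h, 8.76, 9.00 and 8.37 FPKM at 8 h, and 9.73, 7.47 and 7.75 FPKM at 12 h. It was also lower in every library from 2 h on, with log2 fold changes of -0.99 after 2 h and -1.47 after 12 h (approximate SE 0.13, adjusted p = 2.48e-07).

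RS41 had 97.1, 105 and 149 FPKM in the 3 dark libraries, 101, 101 and 92.4 FPKM at 1 h, and 90.3, 77.2 and 104 FPKM at 2 h. Its level was 84.8, 91.9 and 87.0 FPKM at 4 h, 81.5, 80.4 and 85.6 FPKM at 8 h, and 78.4, 75.1 and 74.6 FPKM at 12 h. Dark replicate 3 was far above the other dark libraries, and 2 h replicate 3 overlapped the dark range, while all 4, 8 and 12 h libraries lay below all dark ones. Set against dark, it differed by a log2 value of -0.57 after 2 h (adjusted p = 0.000863) and -0.71 after 12 h (approximate SE 0.11, adjusted p = 0.000112). With dark replicate 3 and 2 h replicate 3 left out, these values were -0.55 and -0.60. Mean levels were 116.9 FPKM in the dark, 98.2 FPKM at 1 h and 90.4 FPKM at 2 h. The listed forms of RS41 run from 1426 nt for RS41.2 to 2481 nt for RS41.5, and their shares changed (below). The part that form length has in the log2 values was not tested.

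SR30 and SR45A rose at 1 h and fell below the dark level at later times. SR45A, whose transcripts are known to accumulate under stress, had 60.4, 68.2 and 55.1 FPKM in the 3 dark libraries, 151, 129 and 142 FPKM at 1 h, and 48.2, 49.8 and 55.8 FPKM at 2 h. Its level was 49.9, 58.0 and 60.0 FPKM at 4 h, 31.1, 31.1 and 31.8 FPKM at 8 h, and 36.9, 32.6 and 32.0 FPKM at 12 h. All 1 h libraries stood above all others, the 8 and 12 h libraries stood below the dark ones, and the 2 h and 4 h ranges overlapped the dark range. Against dark, its log2 fold change was 1.23 at 1 h (2.35-fold, approximate SE 0.12, adjusted p = 3.41e-06), -0.37 at 2 h (adjusted p = 0.0173), -0.17 at 4 h (adjusted p = 0.259) and -0.94 at 8 h (adjusted p = 1.19e-05). The call at 2 h was lost without dark replicate 2 (-0.25, adjusted p = 0.0971), 2 h replicate 1 (-0.34, 0.0612) or 2 h replicate 2 (-0.36, 0.0517), and at 4 h the gene passed without dark replicate 3 (-0.29, 0.0407).

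SR30 had 169.7, 176 and 139.7 FPKM in the 3 dark libraries, 239.9, 239 and 243 FPKM at 1 h, and 101, 111 and 131 FPKM at 2 h. Its level was 141, 135 and 154 FPKM at 4 h, 99.5, 109 and 95.0 FPKM at 8 h, and 94.3, 83.7 and 91.0 FPKM at 12 h. The 1 h libraries lay close together and above all the rest, the 2, 8 and 12 h libraries lay below all dark ones, and at 4 h the ranges overlapped. The log2 fold change against dark was 0.61 at 1 h (approximate SE 0.13, adjusted p = 0.00591), -0.65 at 2 h (adjusted p = 0.00107), -0.29 at 4 h (adjusted p = 0.0901) and -0.88 at 12 h (adjusted p = 7.51e-05). Without dark replicate 3, the 4 h value was -0.43 and passed (adjusted p = 0.00932).

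SR45 was the only gene of the 10 that passed with a higher level than in the dark at any time after 1 h. It had 34.6, 31.3 and 41.0 FPKM in the 3 dark libraries, 33.3, 33.2 and 36.1 FPKM at 1 h, and 39.5, 37.0 and 47.4 FPKM at 2 h. Its level was 48.5, 58.6 and 44.7 FPKM at 4 h, 43.8, 36.2 and 48.5 FPKM at 8 h, and 47.9, 43.0 and 43.0 FPKM at 12 h. All 4 h and 12 h libraries lay above all dark ones, and the 2 h and 8 h ranges overlapped the dark range. The log2 fold change against dark was 0.44 at 4 h (approximate SE 0.12, adjusted p = 0.00622), 0.28 at 8 h (adjusted p = 0.0617) and 0.33 at 12 h (adjusted p = 0.0307). At 12 h the call was lost without dark replicate 1 (0.30, adjusted p = 0.0896), dark replicate 2 (0.28, 0.114), 12 h replicate 1 (0.29, 0.0974) or 12 h replicate 3 (0.35, 0.0530), and with library size alone as the scaling (0.27, 0.122). At 8 h the gene passed without dark replicate 3 (0.0382), 2 h replicate 3 (0.0439), 4 h replicate 2 (0.0443) or 8 h replicate 2 (0.0241).

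RS31A, the least abundant of the RS genes, had 8.21, 7.08 and 15.9 FPKM in the 3 dark libraries, 9.25, 7.58 and 7.59 FPKM at 1 h, and 6.04, 5.39 and 9.43 FPKM at 2 h. Its level was 7.99, 7.80 and 5.74 FPKM at 4 h, 5.51, 6.86 and 7.72 FPKM at 8 h, and 8.81, 6.62 and 8.07 FPKM at 12 h. Dark replicate 3 lay above all other libraries, and every group from 1 to 12 h overlapped the dark range. It passed at 2 h (-0.59, adjusted p = 0.0296) and 8 h (-0.59, adjusted p = 0.0296), and not at 4 h (-0.50, 0.0665) or 12 h (-0.35, 0.181). Without dark replicate 3 neither call held, with values of -0.28 (adjusted p = 0.206) at 2 h and -0.27 (0.224) at 8 h; with 2 h replicate 3 left out too, the 2 h value passed (-0.43, 0.0464) and the 8 h value did not (-0.27, 0.155). The 2 h call was also lost without 2 h replicate 1 (-0.51, 0.107) or 2 h replicate 2 (-0.54, 0.0938) and with library size alone as the scaling (-0.53, 0.0846). The 8 h call was lost without 8 h replicate 1 (-0.48, 0.126) or 8 h replicate 2 (-0.60, 0.0591). The 4 h difference passed without dark replicate 1 (-0.61, 0.0455) or dark replicate 2 (-0.66, 0.0264).

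SR34A had 35.5, 33.1 and 56.6 FPKM in the 3 dark libraries, 36.0, 31.5 and 31.8 FPKM at 1 h, and 40.7, 35.8 and 38.8 FPKM at 2 h. Its level was 50.6, 56.5 and 46.2 FPKM at 4 h, 46.3, 36.5 and 47.9 FPKM at 8 h, and 49.5, 41.6 and 40.1 FPKM at 12 h. Its ranges overlapped the dark range at all 5 times, and no difference from dark passed, with log2 fold changes from -0.29 at 2 h (adjusted p = 0.115) to 0.20 at 4 h (adjusted p = 0.293). Without dark replicate 3, whose level stood above those of the other dark libraries, the 4 h value was 0.41 and passed (adjusted p = 0.0127), and without dark replicate 2 the 2 h value was -0.42 and passed (0.0398).

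**Figure D1:**
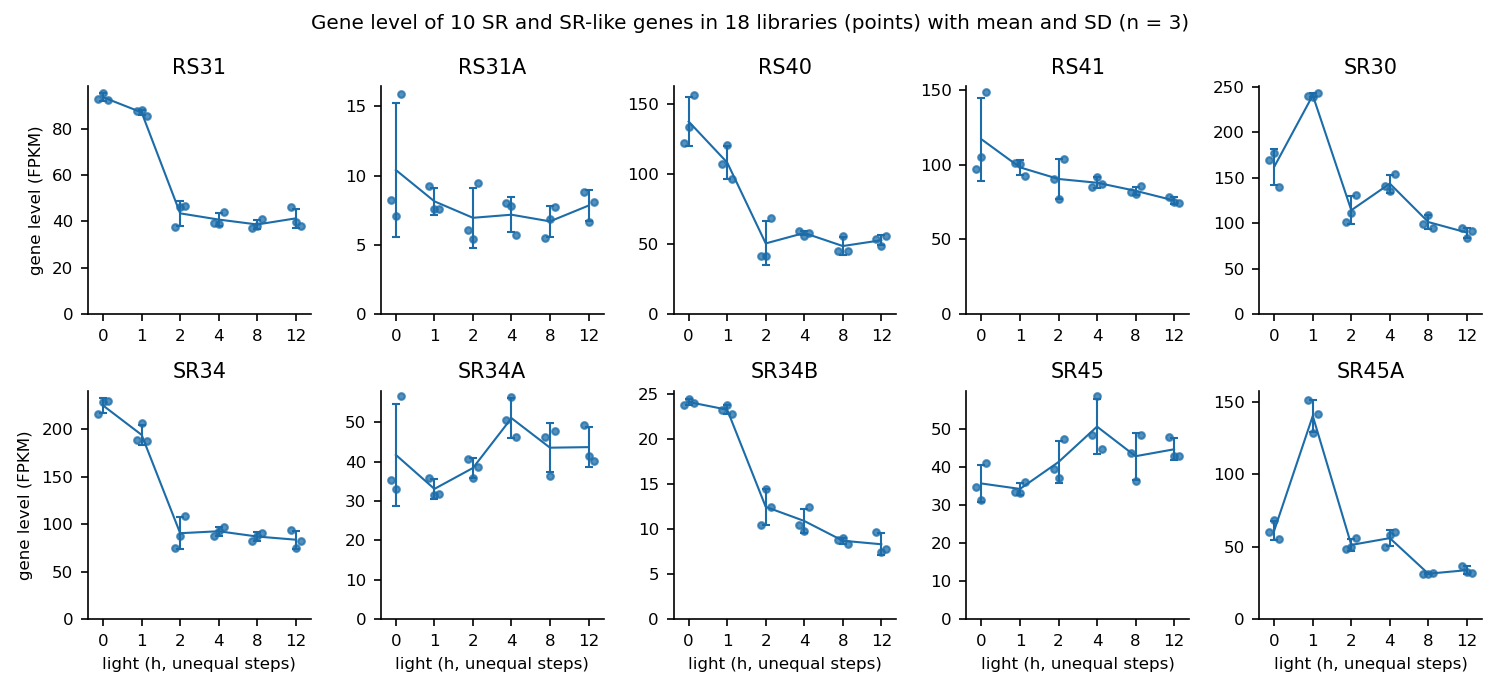
Gene level in FPKM (vertical axes, each from 0) against hours of light (horizontal axis, unequal steps) for the 10 genes, with a point per library, and a line and bars for the mean and SD of 3 libraries. RS31, RS40, SR34 and SR34B drop between 1 and 2 h, SR30 and SR45A peak at 1 h, and SR45 and SR34A lie highest at 4 h.

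Counted over the set, 2 of 10 genes rose at 1 h (SR30 and SR45A) and none fell by edgeR, where 10.9% of all genes tested passed, 3.99% lower and 6.92% higher. At 2 h 8 of 10 fell and none rose, where 47% of all genes passed, 21.3% lower and 25.7% higher. At 4 h 5 fell and SR45 rose (44.1% of all genes passed, 21.3% lower and 22.8% higher), at 8 h 8 fell and none rose (48.3%, with 23.1% lower and 25.1% higher). At 12 h 7 fell and SR45 rose (47.4%, with 23.3% lower and 24.1% higher). Changes of at least 1 in log2 size were fewer. At the 5 times 1, 3, 4, 4 and 4 of the genes passed with them, where 5.75, 20.4, 18.5, 22.6 and 22.3% of all genes did in either direction. The gene at 1 h was higher and all those at later times were lower. Among the 20569 genes tested, 429, 1328, 1545, 1852 and 1890 were lower at that size. In the same order, 753, 2864, 2269, 2789 and 2692 were higher. The median log2 fold change of the 10 genes at 1, 2, 4, 8 and 12 h was -0.12, -0.62, -0.53, -0.84 and -0.86. For all genes tested it was -0.06, 0.10, -0.00, 0.01 and -0.01 in the same order. All 5 comparisons share the dark libraries, so their counts are not independent. In a test of any difference between the 6 times, 9 of 10 passed, where 75% of all genes did, the exception being RS31A (adjusted p = 0.0975).

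**Figure D2:**
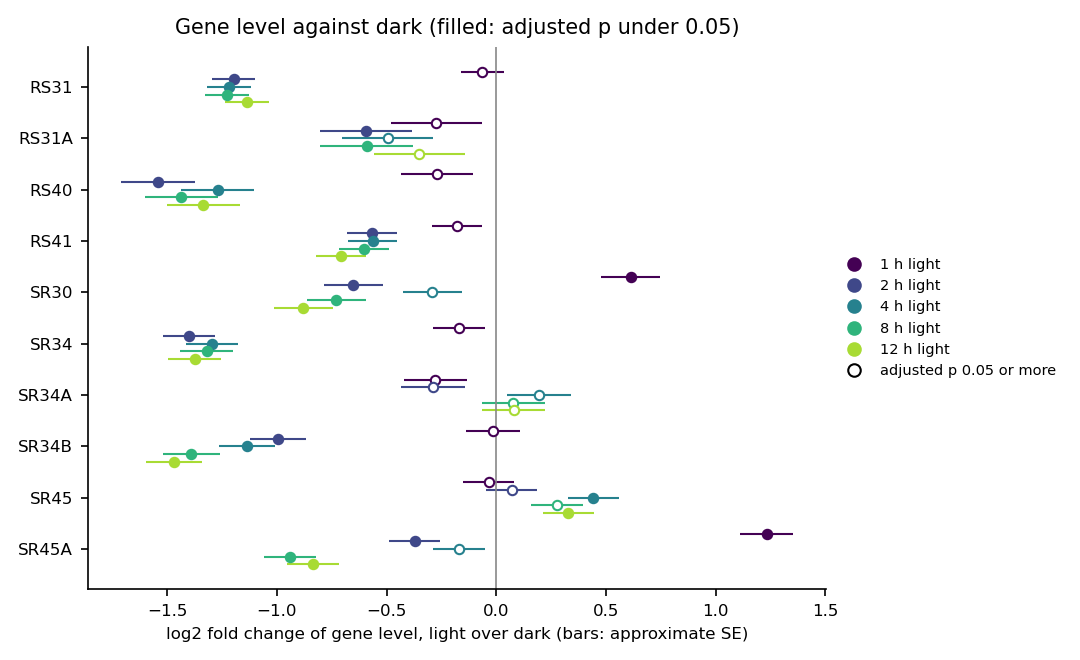
Log2 fold change of gene level, light over dark (horizontal axis), for each gene (rows) at 5 times of light (colours), with bars for the approximate SE. Filled points passed at an adjusted p under 0.05; from 2 h on most lie below 0, while SR45A and SR30 at 1 h lie at 1.23 and 0.61.

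Neighbouring times were also compared with each other, without the dark group as the base, and most of the drops lay between 1 and 2 h. There 7 of 10 genes fell and none rose, where 49.3% of all genes passed, 21.1% lower and 28.3% higher. Of the 7, 5 fell by at least 1 on the log2 scale. Among the 20569 genes tested, 1164 passed lower and 3237 higher at that size (21.4% in either direction). SR45A fell most (-1.61, adjusted p = 2.46e-06), then RS40 (-1.27, 5.67e-05), and SR30 (-1.27, 1.69e-05). Next came SR34 (-1.23, 1.11e-05), RS31 (-1.13, 6.5e-06), SR34B (-0.98, 5.34e-05) and RS41 (-0.39, 0.0109). The RS41 call was lost without 2 h replicate 2 (-0.28, 0.0608) and with library size alone as the scaling (-0.25, 0.114). From 2 to 4 h SR34A (0.48, 0.0259) and SR45 (0.37, 0.0314) rose, where 23.7% of all genes passed, 12.6% lower and 11.1% higher. From 4 to 8 h SR45A (-0.77, 0.00116) and SR30 (-0.44, 0.0458) fell, where 11.4% of all genes passed, 4.85% lower and 6.57% higher. None of these 4 changes reached a log2 size of 1, which 9.77% of all genes passed with from 2 to 4 h and 3.57% from 4 to 8 h. The count from 2 to 4 h was 0 without 2 h replicate 2, 4 h replicate 1 or 4 h replicate 2, 1 without 2 h replicate 1, 3 without dark replicate 2 or 3, and 4 without 2 h replicate 3. The count from 4 to 8 h stayed at 2 only without dark replicate 2 or 3, 2 h replicate 1 or 3, or 8 h replicate 2, and was 1 without any other library. From 8 to 12 h no gene of the 10 passed by edgeR or by DESeq2, 0 of 10 had an unadjusted p under 0.05, and 0% of all genes passed.

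Expected counts of forms are estimates: reads in exons that several forms share are divided between them by a model, and only reads that cross or lie in the differing parts inform the split. All 10 gene loci have the same coordinates in the files as in the RefSeq annotation of the assembly TAIR10.1, and all 44 listed forms were found there with the same length; the annotation has 52 forms of these genes. For 14 of the 44 listed forms the annotated stop codon lies more than 50 nt before the last exon junction, a common mark of transcripts open to nonsense-mediated decay. That count rests on the annotated frames. The forms of RS31A, RS40 and RS41 that keep intron bases are annotated with shorter frames whose stop lies past the last junction. The rule therefore cannot flag them, and whether a frame from the upstream start would meet an early stop was not tested. RS31 had 1 listed form, so no share could be given for it. As transcript levels, 4, 18, 18, 21 and 19 of the SR forms passed against dark at 1, 2, 4, 8 and 12 h by edgeR, where 4.81, 23.5, 21.9, 23.7 and 23.6% of all 35348 transcripts tested did.

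**Figure D3:**
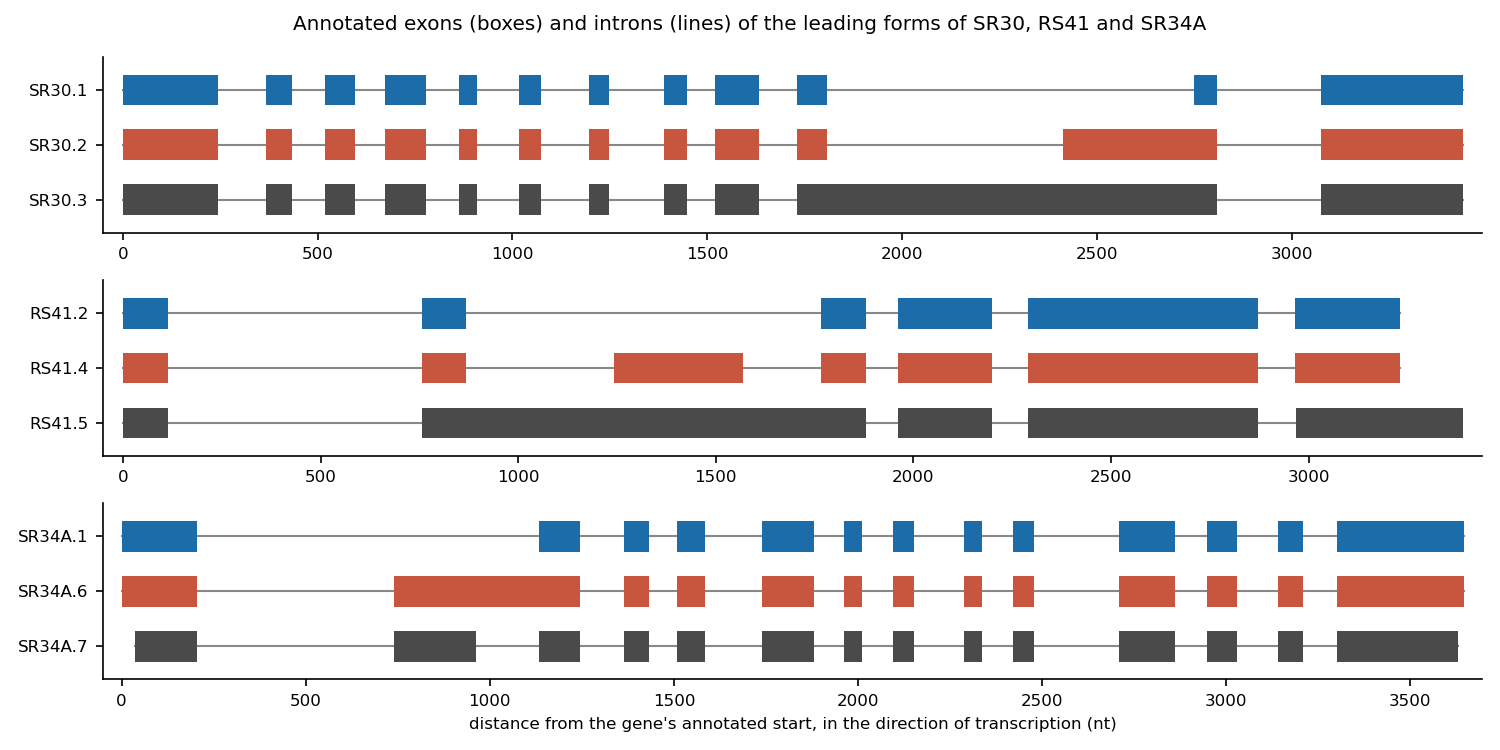
Annotated exons (boxes) and introns (lines) of the leading forms of SR30, RS41 and SR34A, against the distance in nt from the annotated start of the gene in the direction of transcription. Exon 11 of SR30.2 begins earlier than that of SR30.1, holding 338 nt more, RS41.4 has an inner exon of 326 nt that RS41.2 lacks, and exon 2 of SR34A.6 holds 394 nt more at its start than that of SR34A.1.

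SR30 (AT1G09140, chr1:2942538-2945976, minus strand) had the only form of the set that passed the main test of shares. SR30.1 splices out a 942-nt intron between exons 10 and 11 whole and encodes 268 amino acids. SR30.2 uses an acceptor site inside that intron, keeps 338 nt more, and has its stop 359 nt before the last junction, with 256 codons. SR30.3 keeps the whole intron and has 248 codons. The sites that set SR30.1 and SR30.2 apart are shown from the TAIR10.1 genome, 20 bases of intron in lower case and 10 bases of exon in capitals, 5′ to 3′ on the minus strand; the donor is at chr1:2944149-2944178, the inner acceptor at chr1:2943555-2943584 and the outer acceptor at chr1:2943217-2943246.
donor of exon 10, shared: CTGTCTCAAGgtatgagtgttagatttgta
acceptor of SR30.2: ttgcgttgtttgttttctagATCTGGCTCA
acceptor of SR30.1: ggtttttggtcttgctgcagGTCCCAATCA
Both acceptors end in ag, and the 20 intron bases before the exon hold 14 pyrimidines at the SR30.2 site and 12 at the SR30.1 site.

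SR30.1, the form of the outer acceptor, held 1.22, 2.96 and 1.20% in the 3 dark libraries, 4.22, 2.99 and 3.04% at 1 h, and 20.7, 19.6 and 15.6% at 2 h. Its share was 33.9, 32.9 and 22.0% at 4 h, 30.3, 32.4 and 27.8% at 8 h, and 17.4, 25.7 and 24.0% at 12 h. Every library from 2 h on lay above every dark and 1 h library. The mean share was 30.2% ± 2.29 at 8 h and 1.79% ± 1.01 in the dark (SD, n = 3 each). By edgeR's diffSpliceDGE, which tests a form's fold change against that of its gene, with Benjamini-Hochberg adjustment over 23356 forms, the difference from dark was 16.8 percentage points at 2 h (adjusted p = 4.01e-10), 27.8 after 4 h (2.76e-12), 28.4 after 8 h (1.98e-12) and 20.6 at 12 h (2.37e-11). At 1 h it was 1.62 points (adjusted p = 0.743), and from 1 to 2 h 15.2 points (adjusted p = 2.78e-07).

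SR30.2, the form of the inner acceptor, held 95.0, 92.1 and 95.0% in the 3 dark libraries, 86.2, 88.6 and 88.8% at 1 h, and 72.2, 69.8 and 77.2% at 2 h. Its share was 58.7, 60.1 and 67.3% at 4 h, 60.9, 62.5 and 63.6% at 8 h, and 74.3, 66.8 and 68.3% at 12 h. It stayed the leading form throughout, and its libraries from 2 h on lay below all dark and 1 h libraries. SR30.3 held 3.80 to 10.7% over all libraries. As levels, SR30.1 had 2.63, 6.64 and 2.13 FPKM in the 3 dark libraries, 13.0, 9.15 and 9.45 FPKM at 1 h, and 25.5, 26.8 and 25.3 FPKM at 2 h. Its level was 56.4, 52.7 and 41.7 FPKM at 4 h, 36.1, 41.7 and 31.8 FPKM at 8 h, and 20.3, 25.9 and 26.5 FPKM at 12 h. Against dark the log2 fold change of this form was 1.47 at 1 h (edgeR on transcripts, adjusted p = 0.0218), 3.69 after 4 h (5.94e-06) and 2.71 at 12 h (5.81e-05). SR30.2 had 162, 164 and 134 FPKM in the 3 dark libraries, 209.9, 215 and 219 FPKM at 1 h, and 70.5, 75.7 and 98.8 FPKM at 2 h. Its level was 77.2, 76.1 and 101 FPKM at 4 h, 57.4, 63.6 and 57.5 FPKM at 8 h, and 68.5, 53.4 and 59.7 FPKM at 12 h. The log2 fold change of SR30.2 came to -0.87 after 4 h (0.000628) and -1.29 at 12 h (1.95e-05). From 2 h on, all libraries of SR30.1, the form with the full reading frame, lay above their dark levels. Its mean level was highest at 4 h and lower at 8 and 12 h. All libraries of SR30.2, the form with the early stop, lay below their dark levels from 2 h on. SR30.2 and SR30.3 both had their highest levels in the 3 libraries at 1 h. SR30.3 passed there against dark (1.64, 0.00149) and SR30.2 did not (0.51, 0.0713).

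SR30.1 was the only form of the 43 tested that was called by diffSpliceDGE, at an adjusted p under 0.05 with a share difference of at least 10 points. It was called at 2, 4, 8 and 12 h against dark, where 0.188, 0.158, 0.141 and 0.253% of all forms tested were, and from 1 to 2 h, where 0.163% were. At 1 h against dark 0 of 43 were called (3 at an unadjusted p under 0.05), where 0.0728% of all forms were. Neither 2 to 4 h, 4 to 8 h nor 8 to 12 h gave a call among the 43 forms (3 each at an unadjusted p under 0.05), where 0.0514, 0.0385 and 0.0128% of all forms were called, and limma called none of the 43 there either. RS40.2 passed at 4 h (adjusted p = 0.0211) but its share differed by -2.42 points. A form that makes up most of its gene largely sets the gene's own fold change in this test, which leaves a form such as SR30.2 little room to differ from it. Whether this sets diffSpliceDGE apart from limma for the other forms was not tested. With limma on arcsine-transformed shares, a test of the share itself, against dark 5 forms were called after 2 h, 6 after 4 h, 5 after 8 h and 3 after 12 h, and 6 from 1 to 2 h, where 0.954, 0.735, 0.825, 1.03 and 0.559% of all 23270 forms tested were called. These were SR30.1, SR30.2, RS41.2, RS41.4, SR34A.1 and SR34A.6, each at some of these times. They are pairs of forms from SR30, RS41 and SR34A. The shares of a gene's forms add up to the whole, so a gain of 1 form is a loss of others. The calls within a pair are therefore not independent. At 1 h against dark limma called 0 of 43 (2 at an unadjusted p under 0.05), where 0.198% of all forms were.

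**Figure D4:**
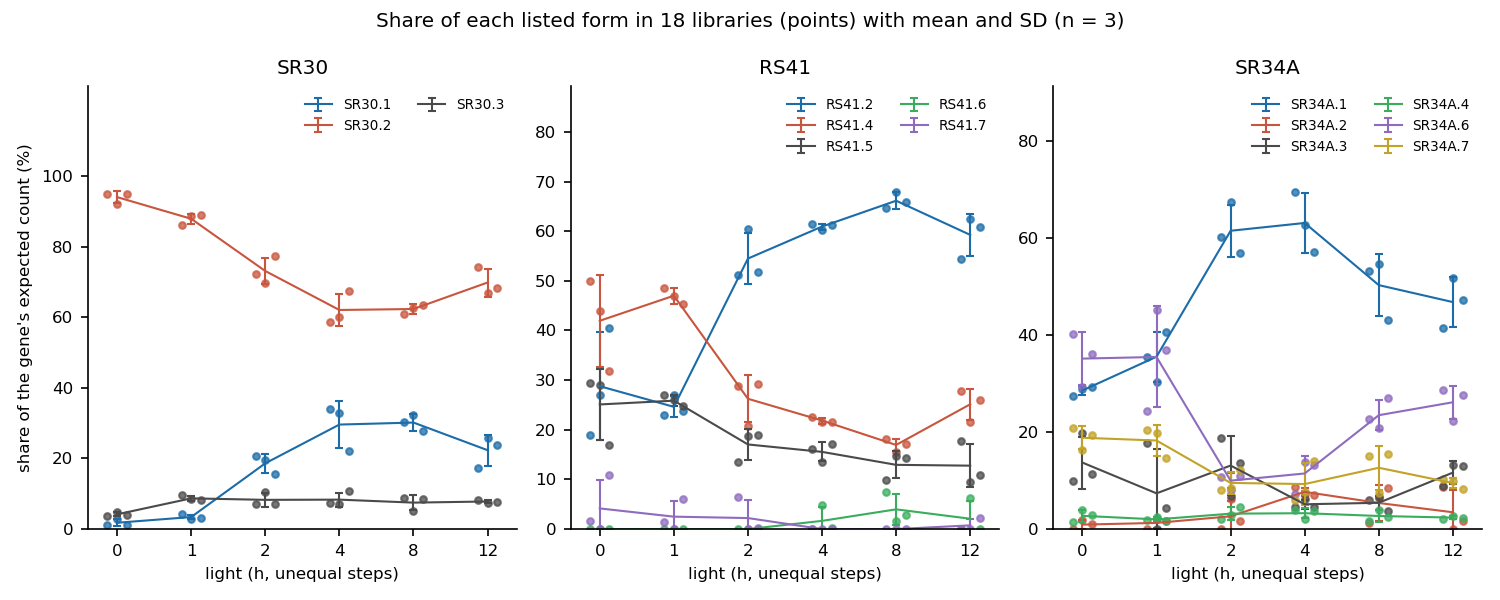
Share of each listed form in the expected count of its gene, in percent, against hours of light (unequal steps) for SR30, RS41 and SR34A, with a point per library, and a line and bars for the mean and SD of 3 libraries. SR30.1, RS41.2 and SR34A.1 lie higher from 2 h on than in the dark, and SR30.2, RS41.4 and SR34A.6 lower at 2 and 4 h.

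RS41 (AT5G52040, chr5:21130320-21133709, plus strand) has a 900-nt intron between exons 2 and 3 that RS41.2 splices out whole, giving a frame of 357 codons. RS41.4 keeps an inner exon of 326 nt from it and is annotated with 324 codons, and RS41.5 keeps the whole intron and is annotated with 315. These shorter frames also end past the last junction and start further downstream than that of RS41.2. They are not the RS41.2 frame with the kept bases added. The 4 sites are shown as above, on the plus strand, at chr5:21131177-21131206, chr5:21131542-21131571, chr5:21131878-21131907 and chr5:21132067-21132096.
donor of exon 2: ATGAAAGCTGgtaagtcttggttcttgttt
acceptor of the inner exon of RS41.4: aacatttgattttggcgcagGATTTGTTTC
donor of the inner exon of RS41.4: ATAATGCAAGgtctgtaaaactacttatag
acceptor of exon 3 in RS41.2: ccttttggttctctccccagGGTTTGCTTT
The 20 intron bases before the exon hold 10 pyrimidines at the inner acceptor and 16 at that of exon 3. AT5G52045, on the other strand, overlaps the intron over 514 nt; it was listed at 0 to 0.41 FPKM, and since no strand setting is stated its reads cannot be told apart from those of RS41.

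RS41.2 held 18.9, 27.0 and 40.5% in the 3 dark libraries, 23.1, 27.1 and 23.7% at 1 h, and 51.3, 60.5 and 51.7% at 2 h. Its share was 61.4, 60.2 and 61.2% at 4 h, 64.6, 67.9 and 65.9% at 8 h, and 54.4, 62.5 and 60.9% at 12 h. It was the leading form in every library from 2 h on, and all of these lay above all dark and 1 h libraries; among the dark libraries, replicate 3 stood highest. Its share was 37.4 points higher at 8 h than in the dark by limma (adjusted p = 0.00513), and passed there at 2, 4 and 12 h too (adjusted p = 0.0267, 0.00788 and 0.00813), while by diffSpliceDGE it did not pass (adjusted p from 0.541 to 0.918). Without dark replicate 3 and 2 h replicate 3, the differences from dark were 32.9, 38.0, 43.2 and 36.3 points at 2, 4, 8 and 12 h, and all passed by limma (adjusted p = 0.0138, 0.00187, 0.00148 and 0.00350).

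RS41.4 held 50.1, 44.0 and 31.8% in the 3 dark libraries, 48.6, 47.0 and 45.4% at 1 h, and 28.7, 20.8 and 29.2% at 2 h. Its share was 22.6, 21.5 and 21.5% at 4 h, 18.2, 15.6 and 17.1% at 8 h, and 27.9, 21.7 and 25.9% at 12 h. It led in the dark in replicates 1 and 2 and in all 1 h libraries, and in all libraries from 2 h on it lay below all of the dark ones. By limma it was lower than dark at 4 h (-20.1 points, adjusted p = 0.037) and 8 h (-25.0 points, 0.00974), and not at 2 h (0.0959) or 12 h (0.0734); by diffSpliceDGE it passed at no time, with adjusted p of at least 0.481. Without both libraries that stood apart it passed by limma at 2 h (-22.3 points, 0.0346) and 12 h (-21.9 points, 0.0173) as well. At the level of transcripts RS41.4 fell, with a log2 fold change of -1.15 at 2 h (edgeR, adjusted p = 0.000379) and -1.87 at 8 h (4.43e-06), as did RS41.5 (-1.51 at 8 h, 0.000331). RS41.2 did not pass at any time against dark (0.55 at 8 h, 0.132), and passed from 1 to 2 h (0.80, 0.0322).

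SR34A (AT3G49430, chr3:18331509-18335154, plus strand) has forms that differ ahead of the reading frame. SR34A.1 splices out a 929-nt intron after exon 1, SR34A.6 keeps 394 nt of it through an inner acceptor, and both encode the same length of 300 amino acids. Their sites, on the plus strand, are at chr3:18331703-18331732, chr3:18332228-18332257 and chr3:18332622-18332651.
donor of exon 1, shared: GTTTCCCCCGgtacggattcattcacctct
acceptor of SR34A.6: acatgctttctttatgatagATGGCAAGAG
acceptor of SR34A.1: ctttttattctcatgtgcagTTTCCCCTTT
The 20 intron bases before the exon hold 12 pyrimidines at the SR34A.6 site and 14 at the SR34A.1 site.

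SR34A.1 held 27.5, 28.9 and 29.3% in the 3 dark libraries, 35.6, 30.4 and 40.7% at 1 h, and 60.2, 67.5 and 57.0% at 2 h. Its share was 69.6, 62.8 and 57.1% at 4 h, 53.3, 54.6 and 43.1% at 8 h, and 41.4, 51.9 and 47.2% at 12 h. All libraries from 2 h on lay above all dark and 1 h libraries, highest at 2 and 4 h. By limma the share was higher than dark by 33.0 points at 2 h (adjusted p = 0.00558), 34.6 after 4 h (0.00382) and 21.7 after 8 h (0.0419), and at 12 h the difference of 18.2 points did not pass (0.0784). Without both libraries that stood apart the 8 h call was lost at a difference of 22.1 points (adjusted p = 0.0948). By diffSpliceDGE no time passed (adjusted p of at least 0.202).

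SR34A.6 held 40.2, 29.3 and 36.1% in the 3 dark libraries, 24.4, 45.1 and 37.0% at 1 h, and 10.8, 8.17 and 11.0% at 2 h. Its share was 7.22, 13.9 and 13.3% at 4 h, 22.6, 20.9 and 26.9% at 8 h, and 28.7, 22.2 and 27.6% at 12 h. The 2 h and 4 h libraries lay below all others. By limma its share was lower than dark at 2 h (-25.2 points, adjusted p = 0.0158) and 4 h (-23.7 points, 0.0194); both calls were lost without dark replicate 3 and 2 h replicate 3 (-25.2 points at 2 h, adjusted p = 0.0790, and -23.3 points at 4 h, 0.0701), and diffSpliceDGE gave 0.0859 and 0.177. As transcripts, SR34A.1 rose at 4 h (log2 fold change 1.34, edgeR adjusted p = 7.39e-05) and SR34A.6 fell at 2 h (-2.07, 0.00037), while the gene level passed against dark at no time.

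**Figure D5:**
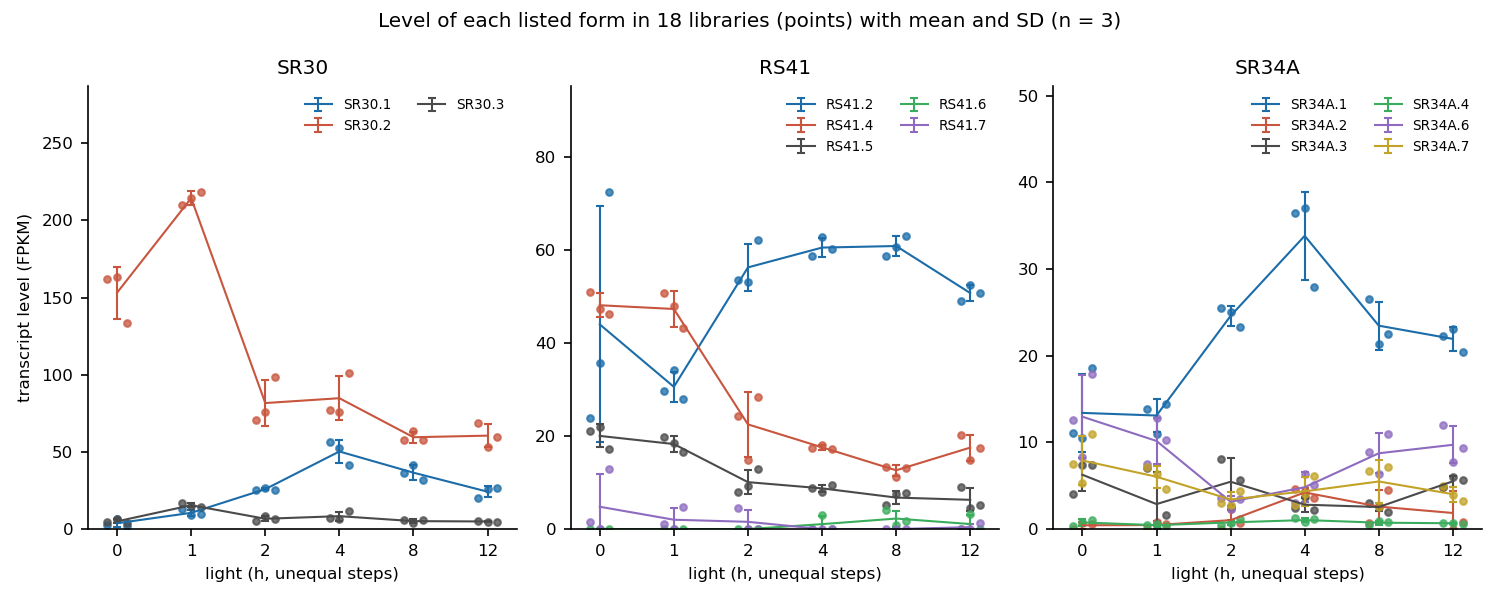
Level of each listed form in FPKM against hours of light (unequal steps) for SR30, RS41 and SR34A, with a point per library, and a line and bars for the mean and SD of 3 libraries. SR30.2 is highest at 1 h and lower from 2 h on, SR30.1 is highest at 4 h, and RS41.4 and RS41.5 lie lower from 2 h on than in the dark.

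The other 6 genes with more than 1 listed form had no form called by either test on all 18 libraries. The forms of each with the highest mean shares are given here. How many of all forms have 3 libraries of a time wholly above or below the 3 dark ones was not counted. Such a gap, here and in the next paragraphs, therefore does not by itself mark a shift of forms. SR34.2, which keeps 353 nt of an 818-nt intron and has its stop 403 nt before the last junction, held 59.8, 57.8 and 60.0% in the 3 dark libraries, 55.4, 53.3 and 59.8% at 1 h, and 50.1, 58.7 and 52.4% at 2 h. Its share was 48.5, 41.0 and 52.6% at 4 h, 59.2, 46.1 and 59.2% at 8 h, and 50.6, 59.5 and 57.7% at 12 h. It led in every library but 4 h replicate 2; its 4 h libraries lay below all dark ones, and those of the other times overlapped the dark range. SR34.1, which splices that intron out and has the longest SR34 frame with 303 codons, held 16.6, 22.0 and 19.5% in the 3 dark libraries, 20.9, 20.7 and 15.1% at 1 h, and 29.0, 18.2 and 26.5% at 2 h. Its share was 33.6, 41.5 and 26.2% at 4 h, 17.0, 29.4 and 16.5% at 8 h, and 21.1, 21.6 and 22.7% at 12 h. The 4 h libraries of SR34.1 lay above all dark ones, a mean of 33.8% ± 7.64 at 4 h and 19.4% ± 2.70 in the dark (SD, n = 3 each), but the difference of 14.4 points passed neither test (adjusted p = 0.519 by diffSpliceDGE and 0.187 by limma). SR34 as a gene fell by 1.40 on the log2 scale at 2 h, and with all 18 libraries none of its forms was called for share at any time.

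For RS40, RS40.3 keeps a 257-nt inner exon and RS40.6 keeps 583 nt, both out of a 782-nt intron. RS40.3 held 40.8, 36.6 and 29.3% in the 3 dark libraries, 37.0, 32.6 and 35.2% at 1 h, and 18.9, 29.2 and 32.6% at 2 h. Its share was 33.0, 26.1 and 28.4% at 4 h, 26.3, 22.0 and 27.6% at 8 h, and 24.8, 28.1 and 26.6% at 12 h. The 8 and 12 h libraries of RS40.3 lay below all dark ones, and the 1, 2 and 4 h ranges overlapped the dark range. RS40.6 held 18.8, 21.3 and 14.6% in the 3 dark libraries, 24.3, 24.7 and 24.3% at 1 h, and 24.8, 23.9 and 17.5% at 2 h. Its share was 18.1, 23.0 and 24.5% at 4 h, 29.6, 25.7 and 28.7% at 8 h, and 21.1, 17.2 and 22.3% at 12 h. Its 1 and 8 h libraries lay above all dark ones, with overlap at the remaining times. RS40.1 and RS40.4, which splice the intron out whole, together held a mean of 30.1% ± 8.36 in the dark, 23.9% ± 2.24 after 1 h, 37.6% ± 5.81 after 2 h, 35.1% ± 5.66 after 4 h, 33.2% ± 8.02 after 8 h and 37.6% ± 3.55 after 12 h (SD, n = 3 each). The range at each time overlapped that of the dark. That sum was formed after the values were seen and was not tested.

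SR34B.3 held 46.3, 42.7 and 51.0% in the 3 dark libraries, 41.7, 44.2 and 51.0% at 1 h, and 55.6, 61.0 and 72.7% at 2 h. Its share was 60.2, 54.3 and 53.1% at 4 h, 61.0, 51.8 and 53.4% at 8 h, and 61.5, 51.2 and 55.9% at 12 h. From 2 h on, all libraries of SR34B.3 lay above all dark and 1 h ones, without a call by either test on all 18 libraries. The gap was narrow, with 51.2% in 12 h replicate 2 against 51.0% in replicate 3 of the dark and 1 h groups. SR34B.1 held 37.3, 42.1 and 35.7% in the 3 dark libraries, 38.9, 39.5 and 35.6% at 1 h, and 38.8, 29.3 and 23.7% at 2 h. Its share was 36.0, 35.1 and 33.8% at 4 h, 31.7, 32.0 and 34.6% at 8 h, and 26.4, 22.8 and 27.2% at 12 h. Its 8 and 12 h libraries lay below all dark ones. Both have their stop more than 50 nt before the last junction, as do all 4 listed forms of SR34B, with 272 codons in SR34B.3 and 178 in SR34B.1.

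SR45A.2, with 129 codons and a stop 590 nt before the last junction, held 59.9, 50.6 and 55.9% in the 3 dark libraries, 56.4, 48.8 and 60.2% at 1 h, and 67.4, 60.4 and 64.3% at 2 h. Its share was 63.3, 53.5 and 56.5% at 4 h, 59.7, 52.5 and 63.0% at 8 h, and 55.9, 55.1 and 59.4% at 12 h. It led in every library, and its 2 h libraries lay above all dark ones. SR45A.6, with 203 codons, held 30.9, 24.8 and 14.9% in the 3 dark libraries, 22.6, 30.6 and 28.0% at 1 h, and 19.0, 19.5 and 18.2% at 2 h. Its share was 25.7, 17.97 and 21.4% at 4 h, 19.7, 21.2 and 15.8% at 8 h, and 18.7, 17.5 and 21.1% at 12 h. Its dark range held or overlapped those of all other times. SR45A.1, the only listed form with the full frame of 382 codons, averaged 10.9% ± 1.96 in the dark, 9.91% ± 1.05 after 1 h, 10.8% ± 0.776 after 2 h, 13.9% ± 3.68 after 4 h, 15.2% ± 5.31 after 8 h and 15.1% ± 6.71 after 12 h (SD, n = 3 each). The range at each time overlapped the 9.18 to 13.0% of the dark, and it was widest at 12 h, with 7.73 to 20.9%.

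SR45.3 held 32.1, 22.3 and 12.9% in the 3 dark libraries, 26.4, 32.7 and 35.2% at 1 h, and 42.8, 38.2 and 39.8% at 2 h. Its share was 37.4, 31.5 and 45.9% at 4 h, 39.5, 29.2 and 35.7% at 8 h, and 32.2, 39.6 and 37.5% at 12 h. Its 2 and 12 h libraries lay above all dark ones, at 12 h by a narrow gap. SR45.1 held 19.6, 41.1 and 46.9% in the 3 dark libraries, 35.3, 17.5 and 10.8% at 1 h, and 13.3, 15.2 and 30.6% at 2 h. Its share was 29.2, 33.5 and 20.8% at 4 h, 22.1, 34.8 and 40.4% at 8 h, and 44.1, 36.5 and 26.8% at 12 h. The forms have 425 and 414 codons, and libraries of a group differed widely, with 19.6 to 46.9% for SR45.1 in the dark. RS31A.2 held 42.8, 42.0 and 56.7% in the 3 dark libraries, 36.7, 58.0 and 57.4% at 1 h, and 57.3, 66.7 and 43.7% at 2 h. Its share was 52.4, 48.8 and 66.1% at 4 h, 63.6, 61.5 and 53.2% at 8 h, and 58.5, 71.1 and 44.5% at 12 h. Every later range overlapped the dark one. RS31A.4 held 13.4, 14.8 and 25.4% in the 3 dark libraries, 29.0, 17.7 and 15.9% at 1 h, and 15.4, 1.83 and 25.4% at 2 h. Its share was 16.9, 18.4 and 13.6% at 4 h, 25.1, 27.2 and 17.6% at 8 h, and 18.1, 22.6 and 19.9% at 12 h. Here too all ranges overlapped that of the dark. RS31A had the lowest counts of the 10 genes, 153 to 430 per library. On the other strand, AT2G46600 overlaps RS31A over 35 nt and had 28.4 to 108.3 FPKM, and AT2G09740 lies within its intron over 491 nt and was not analysed here.

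Of the splicing genes outside the set, the 10 other SR genes gave more lower than higher calls. At 2 h 7 of 10 fell and 1 rose, where 21.3% of all genes tested passed lower and 25.7% higher. At 4 h 6 fell (21.3% of all genes), at 8 h 6 (23.1%) and at 12 h 5 (23.3%), with none higher at these times. Their median log2 fold change lay at -0.58 for 2 h and -0.39 for 12 h. SCL33 fell most, by 1.19 at 2 h and 1.50 at 12 h on the log2 scale (edgeR adjusted p = 1.36e-05 and 8.07e-07), SCL30 fell by 1.06 at 2 h (2.52e-05) and RSZ21 by 1.12 at 2 h (1.29e-05). Of the 5 SR protein kinase and import genes, 4, 3, 2 and 3 fell at 2, 4, 8 and 12 h. In the same order, 21.3, 21.3, 23.1 and 23.3% of all genes fell. SRPK4, a kinase of SR proteins, fell by 1.30 at 2 h (2.93e-06) and 1.28 at 12 h (1.93e-06). Of 6 genes of early spliceosome subunits, 5 fell and 1 rose at 2 h, and 4 fell and 1 rose at 12 h, where 21.3 and 23.3% of all genes fell and 25.7 and 24.1% rose. U2AF65A, the large subunit of the factor that binds the pyrimidine tract, fell by 1.33 at 12 h (8.01e-07) and U2AF35B, a small subunit, by 1.09 at 4 h (0.00329), while U1A of the U1 particle rose by 1.19 at 12 h (1.80e-05). The dark libraries of U2AF35B spread widely, from 61.8 to 132.8 FPKM with a mean of 88.5. Its 4 h libraries held 40.9 to 42.1 FPKM.

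The 3 listed genes of splicing factors tied to phytochrome signalling or the circadian clock (SFPS, RRC1 and SKIP) gave 2 lower at each time from 2 h on, where 21.3, 21.3, 23.1 and 23.3% of all genes were lower, and none moved by a log2 fold change of 1. Among 5 other regulators (PTB1, PTB2, PTB3, GRP7 and GRP8), 3 fell at each time from 2 h on. None rose after 2 h, 2 after 4 h, 1 after 8 h and 1 after 12 h. Of all genes, the same shares as above fell, and 25.7, 22.8, 25.1 and 24.1% rose at these times. GRP7, a glycine-rich RNA-binding protein of the clock, fell by 1.72 at 4 h on the log2 scale (edgeR adjusted p = 1.49e-05) and GRP8, its paralog, by 1.34 at 12 h (1.58e-06). PTB1, a polypyrimidine tract-binding protein, fell by 0.47 at 2 h (0.00102). Its relatives PTB2 (0.39, 0.00621) and PTB3 (0.39, 0.00476) rose at 4 h, and PTB3 also at 8 h (0.52, 0.000524) and 12 h (0.47, 0.00122). The PTB genes were named after their values were seen. At 1 h none of the genes in these 5 lists passed by edgeR, where 10.9% of all genes did, 3.99% lower and 6.92% higher. Of the listed genes, 2 (GRP7 and PTB1) had an unadjusted p under 0.05 there.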

How the data were processed

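Polyadenylated RNA of 18 whole-seedling libraries was sequenced, and the authors deposited 1 table of genes and 1 of transcripts per library. The values used are the expected counts deposited by the authors, estimates that need not be whole, and the FPKM that the authors made from them by length and depth, per the file headers. RSEM, Bowtie2 and HISAT2 are named, without versions, in the submitters' processing notes; the genome build and strand setting are not given in the sources used here. Features absent from a library's table were set to 0.

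Expected counts were rounded, filtered by expression (filterByExpr), scaled by TMM and tested over all 6 groups in 1 fit with edgeR 4.0.16 (quasi-likelihood; diffSpliceDGE for shares) in R 4.3.3, with Benjamini-Hochberg adjustment over all features tested; the approximate SE is the log2 fold change over the root of F. limma 3.58.1 on arcsine square-root shares and DESeq2 1.42.0 were alternatives. The steps were tested on simulated data. The members and lists were chosen with earlier results of these data known. All 10 members are named; forms with a call by either share test, or with the highest mean share of their gene, are given in full, and genes of other lists are named where they passed and changed by 1 or more on the log2 scale. Nothing says that replicates are separate cultures, so p-values measure only the spread between these samples. No pair of libraries was identical. Same-numbered replicates were not treated as pairs, since the labels do not say that a number marks a shared batch. Splice sites, stops and lengths were read from RefSeq TAIR10.1 by transcript ID. Other choices tried were normalization, the filter, fold and share minimums and left-out libraries. The result of 1 other list is not reported here.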

Additional observations from a re-analysis of the deposited data

How the results depend on the processing

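Counts of SR genes that passed were affected as follows. From 4 to 8 h the count was 1 with DESeq2 size factors, with no filter on low counts and with the replicate block, and 1 to 2 with each library left out. From 2 to 4 h it was 0 with library size alone, 4 without dark replicate 3 and 2 h replicate 3, and 0 to 4 with each library left out. Asking for a log2 change of 1 or more in size left 1 gene for 1 h, 3 for 2 h, 4 for 8 h and 4 for 12 h against dark, and 0 for both of those steps. Against dark, leaving out each library gave 6 to 8 genes for 2 h, 6 to 9 for 4 h, 7 to 9 for 8 h and 7 to 8 for 12 h.

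Counts of forms called for share were 5, 6, 5 and 3 by limma at 2 to 12 h against dark and 6 from 1 to 2 h. Without dark replicate 3 and 2 h replicate 3 they were 5, 5, 4, 5 and 3 by limma. At 12 h the 5 held SR30.1, SR30.2, RS41.2 and RS41.4, while SR34A.1 (adjusted p = 0.148) and SR34A.6 (0.624) did not pass. The 5 at 12 h thus went beyond the forms that limma called with all libraries in. With no minimum on the share difference, 2 forms were called at 4 h. With each library left out, diffSpliceDGE called 1 form at each of these comparisons.

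Directions turned for small differences that passed no test. SR34A from 1 to 2 h was 0.12 with library size alone. Without both libraries that stood apart, RS31A was 0.05 and SR45 0.03 at 1 h on the log2 scale, and the shares of RS41.2 and RS41.4 differed by 1.68 and -0.0194 points at 1 h. With libraries left out, the 1 h log2 fold changes ran from -0.128 to 0.0464 for RS31, -0.392 to 0.0568 for RS31A, -0.0677 to 0.0872 for SR34B and -0.0568 to 0.0406 for SR45. SR34A ran from -0.0445 to 0.294 at 8 h, -0.0345 to 0.301 at 12 h and -0.0766 to 0.0378 from 1 to 2 h, and SR45 from -0.0262 to 0.132 at 2 h and -0.00284 to 0.166 from 1 to 2 h. The 1 h share differences ran from -9.10 to 1.68 points for RS41.2, -0.0194 to 9.10 for RS41.4 and -4.47 to 5.88 for SR34A.6. The cause was not tested.

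Same-numbered libraries deviated together, with correlations over 0.1 in all 3 pairs, only for 2 h against dark (0.116, 0.297 and 0.289), and the mean correlation was -0.266 at 4 h. With the replicate block, 2, 8, 6, 8 and 8 genes passed at 1, 2, 4, 8 and 12 h against dark, and SR30.1 remained called for share at the last 4 of these. Depth limits RS31A most, with 153 to 430 counts per library.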
